A study of Mus musculus with 36 samples.

Results

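The genes described here are 35 genes of fat cells (adipocytes), chosen by name for fat cell identity, lipid storage and lipolysis, in mesenteric lymph nodes of mice. They were read from every probe set whose only gene symbol in the platform annotation is 1 of these 35 names. Of the 35 genes, 31 had such a probe set. They held 66 of the 35041 probe sets with a single symbol, besides 8 control probe sets of Pcx. Of 12395 tested genes 28 were members, 27 of them represented on array A and Agpat2 on array B. Plin1, Cfd, Adrb3 and Acsl1 had no probe set of their own symbol in the annotation used and were not analysed here. Cidea (a droplet protein), Ucp1 (the uncoupling protein of brown fat) and Aqp7 (a glycerol channel) had only dim probe sets, whose intensity stayed between 13.8 and 267.5 units in every sample, and were not tested.

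RNA of mesenteric lymph nodes was hybridised to 2 Affymetrix array types with largely different probe sets, called array A and array B. Nodes came from mice given soluble lymphotoxin-beta receptor (sLTbetaR-Ig), a decoy for the ligands of that receptor, for 1, 2, 3, 27 or 35 days, or given PBS (day 0). All 6 groups had 3 samples per array type, 36 measurements in all. The labels do not state strain, sex, age, dose, route or whether each sample was 1 animal, and the p-values therefore measure only how these samples spread. They also do not say whether samples of the same number on the 2 array types share RNA. Array B values are therefore not an independent repeat of those on array A. No PBS group stands beside the later days, so days of receptor and day of harvest cannot be told apart.

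Mesenteric lymph nodes lie embedded in the fat of the mesentery, so a dissected node can carry fat cells on its surface. A fat cell takes up fatty acids, esterifies them to glycerol 3-phosphate and stores the triglyceride in a droplet coated with perilipins and Cide proteins. On demand, lipases acting in turn release the fatty acids again. The nuclear receptor Pparg and the factor Cebpa hold this programme in place, and fat cells secrete adiponectin, leptin and, in mice, resistin. In these bulk samples fewer fat cells and less fat cell RNA per cell cannot be told apart.

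Promoters (250 bases before and 50 after the transcription start) were matched by symbol to RefSeq records of mouse build GRCm38.p6 for 26 of the 35 genes, 36 promoters in all. Of the 4 members with the largest changes at day 35 (Pck1, Mgll, Dbi and Cidec), a promoter holding 1 of the motifs searched is shown where there was one. Both Cidec promoters and the other Mgll promoter held none, and the other Dbi promoter, not shown, also held CCAAT. The Pck1 promoter lies at chr2:173152823-173153122 on the plus strand, and its capitals mark ACGTCA, the core of a cAMP response element, at position -91. The Mgll promoter lies at chr6:88724162-88724461 on the plus strand, with the E-box CACGTG at -44 in capitals. The Dbi promoter lies at chr1:120120870-120121169 on the minus strand, and its capitals mark a CCAAT box on the opposite strand at -176.
Pck1: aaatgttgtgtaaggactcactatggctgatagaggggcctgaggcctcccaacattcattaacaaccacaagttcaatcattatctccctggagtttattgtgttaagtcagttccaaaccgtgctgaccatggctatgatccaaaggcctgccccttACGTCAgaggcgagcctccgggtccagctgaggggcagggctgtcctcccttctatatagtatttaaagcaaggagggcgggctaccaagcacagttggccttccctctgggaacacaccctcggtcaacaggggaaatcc
Mgll: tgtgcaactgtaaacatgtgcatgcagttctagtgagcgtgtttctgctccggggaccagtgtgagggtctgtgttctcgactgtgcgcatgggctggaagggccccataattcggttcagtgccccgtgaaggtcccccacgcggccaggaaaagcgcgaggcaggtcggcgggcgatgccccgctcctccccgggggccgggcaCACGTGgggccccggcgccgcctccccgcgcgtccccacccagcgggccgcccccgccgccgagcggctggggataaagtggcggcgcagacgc
Dbi: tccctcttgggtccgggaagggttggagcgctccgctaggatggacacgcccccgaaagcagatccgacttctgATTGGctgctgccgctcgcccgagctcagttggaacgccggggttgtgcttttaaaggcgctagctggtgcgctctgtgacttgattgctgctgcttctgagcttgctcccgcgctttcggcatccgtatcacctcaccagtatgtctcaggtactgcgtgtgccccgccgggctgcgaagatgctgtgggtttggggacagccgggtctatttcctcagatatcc
All 4 motifs were searched on both strands. ACGTCA was in 1 of the 36 member promoters (2.78%, that of Pck1), against 7.51% of 32851 RefSeq promoters of the same length. The nuclear receptor half-site AGGTCA was in 11 (30.6%), against 16.3% of all. CCAAT was in 14 (38.9%), against 37.4% of all, and CACGTG in 4 (11.1%), against 7.15% of all. The 3 promoters shown were chosen for holding a match, positions are counted from the transcription start, and a match is a description of letters only.

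The members were first read as a signal common to all samples. Fat cell transcripts were bright in every sample: adiponectin (Adipoq, probe set 1422651_at on array A) stood at 5009, 3826 and 3877 intensity units in PBS samples, 3473, 4149.9 and 4503 at day 1, 3722, 4270.2 and 4613 at day 2, 3764, 3948 and 3821 at day 3, 4386, 3979.6 and 3264 at day 27 and 3167, 2407 and 3691 at day 35. Resistin (Retn, 1449182_at) stood at 3612, 3571 and 3293 intensity units in PBS samples, 2743, 3389 and 3737 at day 1, 3155, 3680.2 and 3731 at day 2, 3631, 3819 and 2731 at day 3, 3763, 3774 and 2837 at day 27 and 2482, 2415 and 3079 at day 35. For both genes all day 35 samples lay below all PBS samples, while the ranges of the other days overlapped that of PBS. The brown fat markers Ucp1 and Cidea were dim: Ucp1 averaged 221 ± 36.6 at day 35 and 221 ± 18.4 in PBS samples, and Cidea 157 ± 5.76 at day 35 and 171 ± 19.7 in PBS samples (SD, n = 3 each). To be tested, a probe set of array A had to exceed 286.7 units on at least 3 arrays.

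A fat signal was formed for each sample as the mean log2 intensity of the 7 tested members that define fat cells on array A (Adipoq, Retn, Lep, Plin4, Cidec, Car3 and Thrsp, of 12 so listed), relative to the PBS mean. It stood at 0.09, -0.05 and -0.04 in PBS samples, at -0.26, -0.06 and 0.05 at day 1, at -0.20, -0.05 and 0.07 at day 2, at -0.14, -0.10 and -0.18 at day 3, at 0.12, -0.06 and -0.12 at day 27 and at -0.29, -0.53 and -0.12 at day 35. At days 3 and 35 every sample lay below the PBS samples, by little at day 3, and replicate 3 of day 35 lay near them. Over the 18 array A samples, with group means removed, 20 members outside this mean correlated with it at a median r of 0.68 (0.21 to 0.91), and 7774 other genes at a median of -0.09 (-0.82 to 0.95). These values come from the same arrays and are a description. Lipe (0.91), Cebpa (0.89), Mgll and Pnpla2 (0.84 each) followed the signal most closely among members, Pck1 stood at 0.63, and Acly lowest at 0.21. Outside the members, the 8 genes nearest to it were Adig (0.95), Fgfrl1 (0.95), Cavin1, Scp2, Prxl2a and Cdo1 (0.89 each), Ehd2 (0.88) and Idh1 (0.87).

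**Figure D1:**
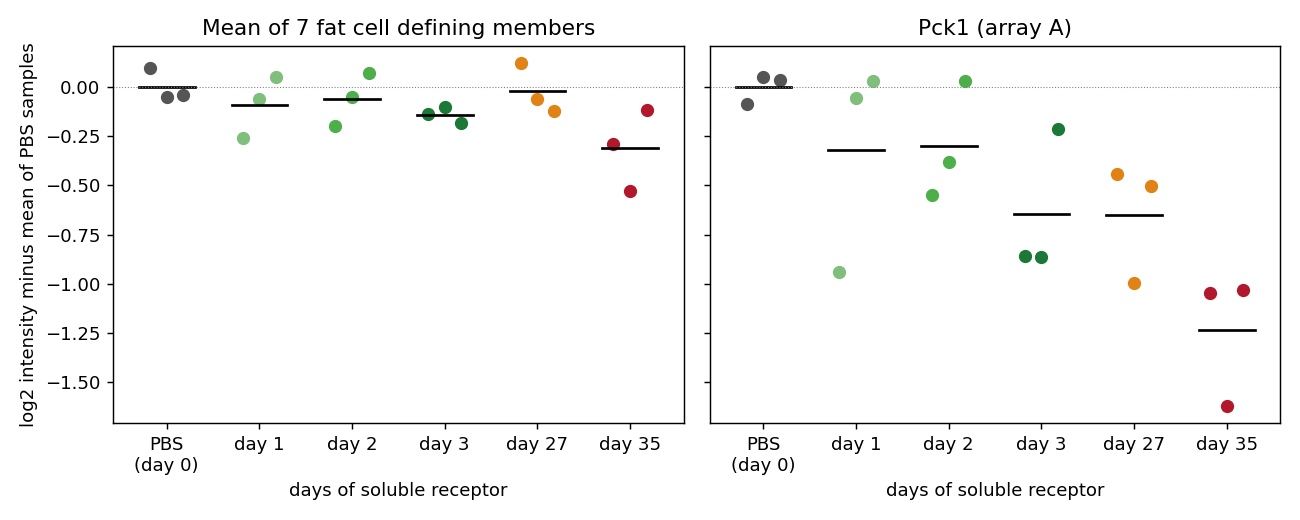
Left, mean log2 intensity of 7 fat cell defining members on array A relative to PBS, by days of soluble receptor; right, the same for Pck1 alone; points are samples and bars group means. Pck1 lay at -1.05, -1.62 and -1.03 at day 35 while the fat signal lay at -0.29, -0.53 and -0.12.

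Pck1, phosphoenolpyruvate carboxykinase, supplies the glycerol backbone of triglyceride in fat cells. Its probe set 1423439_at on array A stood at 1229, 1354 and 1339.8 intensity units in PBS samples, 681, 1256 and 1333 at day 1, 894, 1003 and 1332 at day 2, 721, 718 and 1124 at day 3, 960.2, 655 and 920.4 at day 27 and 632, 425 and 640.4 at day 35. All day 3, day 27 and day 35 samples lay below all PBS samples, and at days 1 and 2 some did and others did not. On array B, 1439617_s_at stood at 482, 528 and 453 intensity units in PBS samples, 275, 444 and 475 at day 1, 362, 401 and 507 at day 2, 286, 241 and 372 at day 3, 296, 227 and 303 at day 27 and 224, 154 and 238 at day 35, with the same groups apart from PBS. Day 35 averaged 566 ± 122 and PBS 1308 ± 68.1 on array A (SD, n = 3 each), a fold of 0.426 and a log2 change of -1.23 (SE 0.24, adjusted p = 0.00414) in the limma fit. Array B gave -1.27 (SE 0.20, adjusted p = 0.00211). The Pcx control probe sets also read lower at day 35 on array B, at log2 changes of -0.62 to -0.34. Neither probe set passed earlier: day 3 changes were -0.65 on array A and -0.72 on array B (adjusted p = 0.337 and 0.399), and day 27 changes -0.65 and -0.83 (adjusted p = 0.143 and 0.104). With array weights the array A change at day 3 was called, at -0.85 (adjusted p = 0.0184). A further probe set named Pck1, 1455209_at, was dim (51.2 to 74 units) and not tested.

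Pck1 was set beside the fat signal in the same samples by subtracting one log2 change from the other. This takes Pck1 to move 1 for 1 with the fat signal, which was not tested. The difference was -0.18, 0.11 and 0.08 in PBS samples, -0.68, 0.01 and -0.02 at day 1, -0.35, -0.33 and -0.04 at day 2, -0.72, -0.76 and -0.03 at day 3, -0.56, -0.93 and -0.38 at day 27 and -0.76, -1.09 and -0.91 at day 35. At days 27 and 35 Pck1 was below the fat signal in every sample by more than in any PBS sample. The same was so of 1 sample at day 1, 2 at day 2 and 2 at day 3. No p is given for this difference, since the members were chosen with earlier results known. Its size depends on the 1 for 1 assumption, and Pck1 varied most within groups (SD 0.35) of the members on array A. In a fit with the fat signal as a covariate the Pck1 change at day 35 was -0.73 and not called.

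At day 35, 6 of 28 members fell (21.4%), against 4% of 12395 genes called lower, and 0 rose, against 1.26% called higher (5.55% lower and 0.744% higher where arrays were set to a common median). The members that fell were Pck1, Cidec, Cebpa, Lipe, Mgll and Dbi. Their changes ran from -0.53 to -1.23 on the log2 scale, and 15 of 28 members had an unadjusted p under 0.05. Here and below, no share over all genes is given beside counts at an unadjusted p, so these counts cannot be set against the background. The median member change was -0.25, against 0.02 over all genes, and 23 members lay below 0 (82.1%), against 44.2% of all genes.

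Cidec, a protein that fuses lipid droplets in fat cells, stood at 1389.6, 1338 and 1339 intensity units in PBS samples, 1037, 1536 and 1438 at day 1, 1117, 1242 and 1562 at day 2, 1253, 1163 and 1219.6 at day 3, 1321, 1169 and 1052 at day 27 and 907, 599 and 918 at day 35 (1452260_at). All day 35 samples lay below all other samples, and the day 3 and day 27 samples also lay below all PBS samples. The log2 change at day 35 was -0.77 (SE 0.16, adjusted p = 0.00598). The droplet coat protein Plin4 stood at 1059, 912 and 1303 at day 35 and 1532, 1544 and 1423 in PBS samples, with no overlap, and missed the threshold (-0.47, SE 0.14, adjusted p = 0.0525). Its day 1 samples (1005, 1248 and 1368) and day 3 samples (1060, 1139 and 1136) also lay below all PBS samples, and neither day was called. With array weights Plin4 was called lower at days 1, 2 and 3. Plin2, a droplet coat of many cell types, was not called, at -0.08 (SE 0.10, adjusted p = 0.693).

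Of the lipases, Lipe and Mgll fell and Pnpla2 missed the threshold. Lipe, hormone-sensitive lipase, stood at 1401, 1429 and 1409 intensity units in PBS samples, 1117, 1386 and 1534 at day 1, 1280.2, 1359.9 and 1554 at day 2, 1410.1, 1584 and 1277 at day 3, 1561, 1375 and 1309 at day 27 and 981, 771 and 1073 at day 35 (1422820_at). Every day 35 sample lay below every other sample, at a log2 change of -0.60 (SE 0.12, adjusted p = 0.00676). The Lipe probe set of array B, 1432180_at, was dim and not called, at 0.21 (SE 0.15, adjusted p = 0.467), in the other direction. Mgll, the monoglyceride lipase that completes lipolysis, stood at 1629, 1548 and 1430.3 intensity units in PBS samples, 1242, 1475 and 1553 at day 1, 1299.7, 1427 and 1674 at day 2, 1203, 1224 and 850.4 at day 3, 1247, 1179.6 and 1046 at day 27 and 916, 723 and 1079.5 at day 35 (1426785_s_at). Days 3, 27 and 35 lay below PBS without overlap, and at day 35 the change was -0.78 (SE 0.15, adjusted p = 0.00386). A further Mgll probe set, 1453836_a_at, gave -1.02 (SE 0.16, adjusted p = 0.00112), and 1450391_a_at gave -0.19 (SE 0.13, adjusted p = 0.405), so probe sets of this gene disagreed. Pnpla2, which starts lipolysis, stood at 1856, 1698 and 2274 at day 35 and 2742, 2301 and 2470.3 in PBS samples, with no overlap and a change of -0.37 (SE 0.12, adjusted p = 0.0564).

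Among regulators, Cebpa stood at 1678, 1556 and 1486 intensity units in PBS samples, 1339.8, 1492 and 1716 at day 1, 1434, 1579 and 1796 at day 2, 1361, 1539.9 and 1142 at day 3, 1460.2, 1352 and 1174 at day 27 and 1087, 934 and 1260.4 at day 35 (1418982_at), and its day 27 and day 35 samples lay below PBS without overlap. Its change at day 35 was -0.53 (SE 0.13, adjusted p = 0.015). Pparg stood at 333, 383 and 340.0 intensity units in PBS samples, 397, 461 and 457 at day 1, 389, 410.4 and 438 at day 2, 368, 466 and 367 at day 3, 371, 387 and 330.0 at day 27 and 309, 282 and 348 at day 35 (1420715_a_at). Its day 1 and day 2 samples all lay above the PBS samples and its day 35 samples overlapped them. The Pparg change was 0.32 (SE 0.10, adjusted p = 0.998) at day 1 and -0.17 (SE 0.10, adjusted p = 0.348) at day 35. No contrast of Pparg with PBS passed the test, although the contrast of late with early days did.

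Of the genes of fatty acid uptake and handling, Dbi, the acyl-CoA binding protein found in many cell types, stood at 2466, 2225 and 2255 intensity units in PBS samples, 1934, 2044 and 2237 at day 1, 1925, 2212 and 2144 at day 2, 1925, 2191 and 1282 at day 3, 1939, 2240.2 and 1361 at day 27 and 1392, 997 and 1765 at day 35 (1422432_at). All day 2, day 3 and day 35 samples lay below all PBS samples, and replicate 3 of day 3 and of day 27 lay far below the other samples of their group. Its change at day 35 was -0.78 (SE 0.20, adjusted p = 0.0212). The other 2 tested Dbi probe sets, 1433991_x_at and 1455976_x_at, gave -1.08 (SE 0.19, adjusted p = 0.00275) and -0.93 (SE 0.20, adjusted p = 0.00808), and 1455976_x_at lost its call without replicate 2 of day 35. Fabp4, the fatty acid binding protein of fat cells, stood at 5581, 5639 and 5351 intensity units in PBS samples, 5368, 5401 and 5414 at day 1, 4714, 5028 and 5546 at day 2, 4781, 5229.9 and 3979 at day 3, 5284, 4871 and 4731 at day 27 and 4662, 4117 and 4909.8 at day 35 (1417023_a_at). Its day 3, day 27 and day 35 samples lay below all PBS samples, and the change at day 35 was -0.28 (SE 0.09, adjusted p = 0.0585). Another Fabp4 probe set, 1451263_a_at, was called, at -0.40 (SE 0.10, adjusted p = 0.0154), and lost its call in 4 of 6 omissions (PBS replicates 1 and 3, day 35 replicates 2 and 3). The other 2 tested Fabp4 probe sets, 1424155_at (0.05, SE 0.19, adjusted p = 0.912) and 1425809_at (-0.07, SE 0.18, adjusted p = 0.854), were dimmer and overlapped PBS. Lipoprotein lipase (Lpl, -0.12), the fatty acid transporter Cd36 (-0.19) and the caveolar coat gene Cav1 (-0.08) were not called, nor were second probe sets of Lpl (-0.29 on 1431056_a_at) and Cd36 (-0.38 on 1450883_a_at).

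The secreted products were not called at day 35. Their log2 changes were -0.47 (SE 0.14, adjusted p = 0.0551) for Adipoq, -0.40 (SE 0.14, adjusted p = 0.0882) for Retn and, for leptin (Lep), 0.21 (SE 0.09, adjusted p = 0.17). Leptin lay above 0 and the other 2 products below, and it was the defining member least like the fat signal (r = 0.03, itself part of that mean).

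Triglyceride synthesis and fatty acid synthesis showed the spread within day 35. The acyltransferase Dgat2, which makes triglyceride, stood at 2400.4, 2525 and 4381 at day 35, against 3435, 3514 and 3537 in PBS samples, on 1422678_at, with replicate 3 above every PBS sample and the other 2 below. On 1422677_at it stood at 1469, 1452 and 2818 at day 35 and 2727, 2813 and 2932 in PBS samples, so that replicate 3 lay within PBS there. The log2 changes were -0.23 (SE 0.19, adjusted p = 0.499) and -0.63 (SE 0.22, adjusted p = 0.0829). Gpd1, which makes glycerol 3-phosphate, stood at 1516, 1511 and 2601 at day 35 and 1882, 2088 and 1989.7 in PBS samples on 1439396_x_at, replicate 3 again being above PBS. On the other 2 tested Gpd1 probe sets, 1416204_at (-0.34) and 1448249_at (-0.21), replicate 3 lay within PBS and the other 2 samples below. None of the Dgat2 and Gpd1 probe sets was called. The other members of the glycerol and triglyceride group were not called: the acyltransferase Dgat1 (-0.36), the phosphatidate phosphatase Lpin1 (-0.14), Agpat2, which makes phosphatidate (-0.27, on array B), and pyruvate carboxylase Pcx (0.06). ATP citrate lyase (Acly), which supplies acetyl-CoA, stood at 3469, 4092 and 4189.9 intensity units in PBS samples, 4007, 2804 and 3827 at day 1, 4148, 4283 and 3720.1 at day 2, 5089.6, 5457 and 5393 at day 3, 6588, 5375 and 4925 at day 27 and 4297, 4816 and 6527 at day 35 (1438389_x_at). Every day 3, day 27 and day 35 sample lay above every PBS sample, yet no contrast with PBS passed (day 27, 0.52, SE 0.14, adjusted p = 0.0553, and day 35, 0.39, SE 0.14, adjusted p = 0.104). The other 3 tested Acly probe sets gave 0.27, 0.05 and 0.00 at day 35, none called. Of the remaining members of this group, the glucose transporter Slc2a4 gave -0.34 on 1415959_at and, on its representative, 0.07, the acetyl-CoA carboxylase Acacb 0.10 and Thrsp, a nuclear regulator of lipid synthesis, -0.28 (0.17 on array B), none called.

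Carbonic anhydrase 3 (Car3), an abundant fat cell protein, gave different values on the 2 arrays. On array A, 1449434_at stood at 6702, 5888 and 6835 at day 35 and 6972, 6058 and 6413 in PBS samples, a change of -0.00 (SE 0.10, adjusted p = 0.993). Another tested probe set of array A, 1460256_at, stood at 4624, 3847 and 4727 at day 35 and 5136, 4361 and 4250 in PBS samples. Its groups overlapped and it was not called. On array B, 1430584_s_at stood at 1185, 1009 and 1172 in PBS samples, 868, 1076 and 890 at day 1, 1030, 925 and 870 at day 2, 1164, 872 and 802 at day 3, 1112, 734 and 644 at day 27 and 609, 587 and 693 at day 35. Its change at day 35 was -0.83 (SE 0.17, adjusted p = 0.00934), and 1453588_at gave -0.85 (SE 0.18, adjusted p = 0.0125). The call of 1453588_at was lost in 4 of 6 omissions (PBS replicates 1 and 3, day 35 replicates 1 and 2). The 4 control probe sets of Pcx carry the same names on both array types, and their log2 changes at day 35 spanned -0.16 to 0.08 in the array A samples and -0.62 to -0.34 in the array B samples. These control probe sets thus also read lower at day 35 on array B than on array A. The part of the array type in the Car3 values and in other array B values was not tested.

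**Figure D2:**
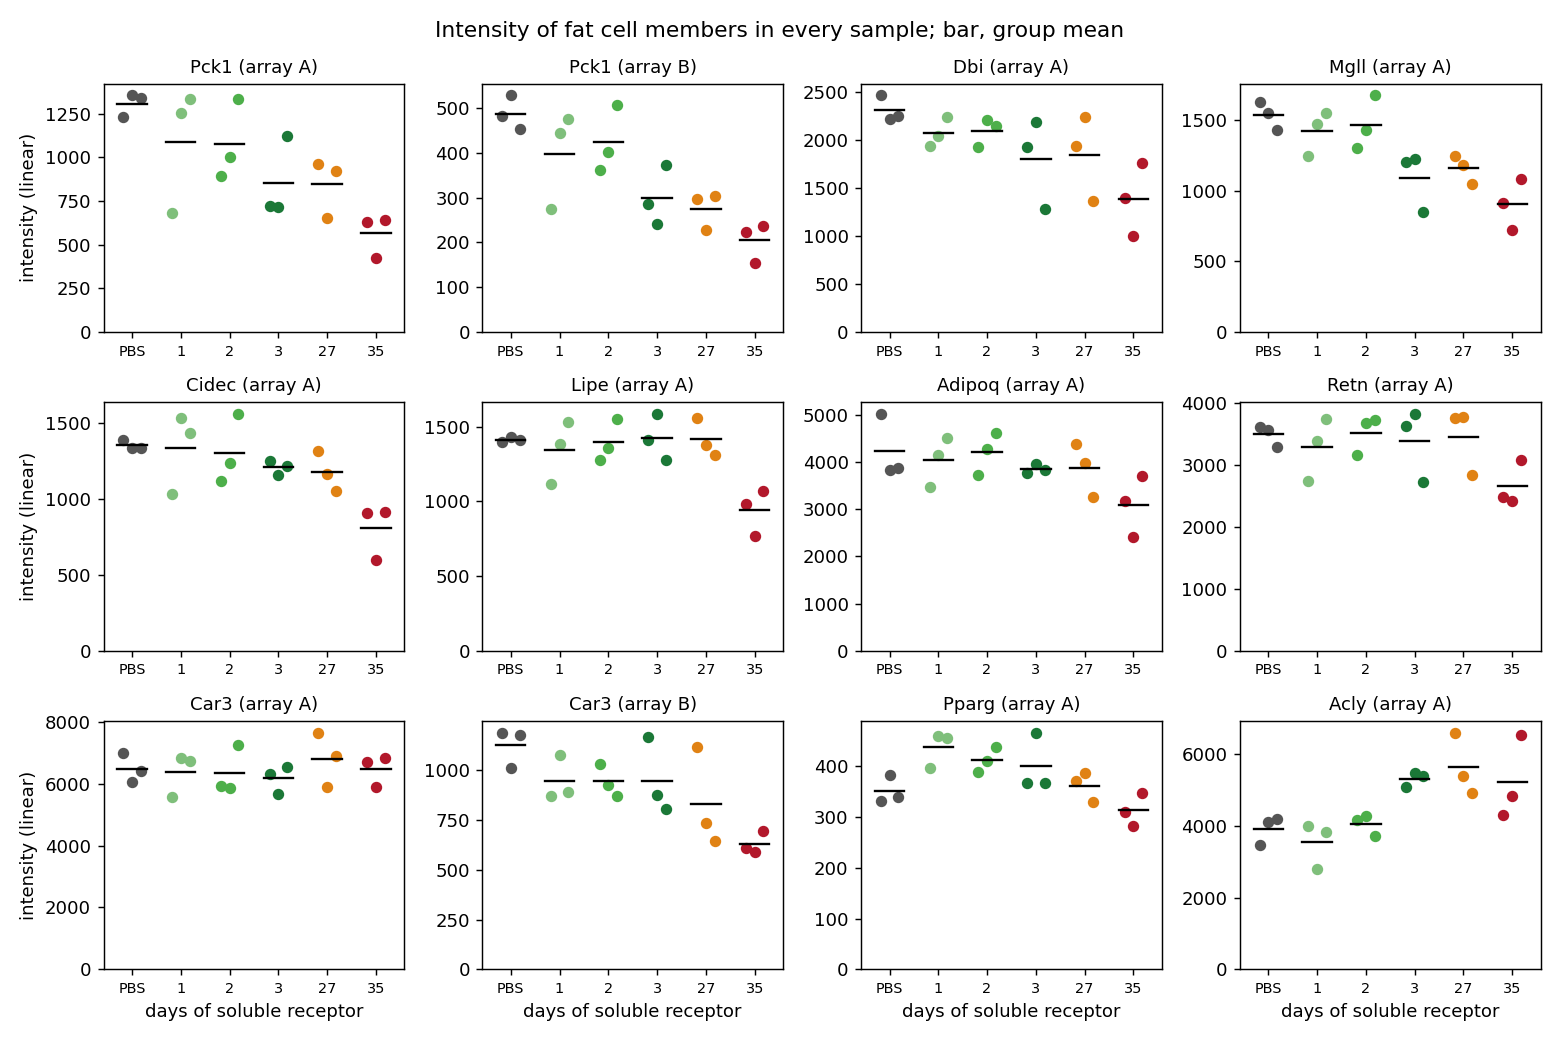
Deposited intensity (linear scale) of 12 member probe sets in every sample, by days of soluble receptor; bars are group means. Pck1 stood at 632, 425 and 640.4 units at day 35 and 1229, 1354 and 1339.8 in PBS samples on array A, Acly was higher in all day 3, 27 and 35 samples than in PBS samples, and Car3 at day 35 lay below PBS on array B and overlapped it on array A.

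The day 35 count depended on single samples. Without replicate 2 of day 35 the count was 3 (Cidec, Mgll and Pck1), against 1.77% of all genes called lower. Without replicate 3 it was 13, all lower, against 2.9%. The Dbi call was also lost without any 1 PBS replicate (adjusted p up to 0.135 over the omissions) and the Cebpa call without PBS replicate 1 (adjusted p up to 0.101 over the omissions). Where dim probe sets were kept in the test, 4 members were called (Cidec, Lipe, Mgll and Pck1), against 2.14% of all genes called lower. The Cebpa and Dbi calls were lost there. With the fat signal as a covariate, an alternative chosen after seeing the data and restricted to the 20 members outside it, 0 of 20 members were called (6 at an unadjusted p under 0.05), against 0.718% of 7801 genes of array A, and the median change was 0.05. The Pck1 change was then -0.73 (SE 0.25, adjusted p = 0.164) and that of the representative Mgll probe set -0.37 (SE 0.12, adjusted p = 0.144). The Mgll probe set 1453836_a_at still passed, at -0.53 (SE 0.10, adjusted p = 0.0256).

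**Figure D3:**
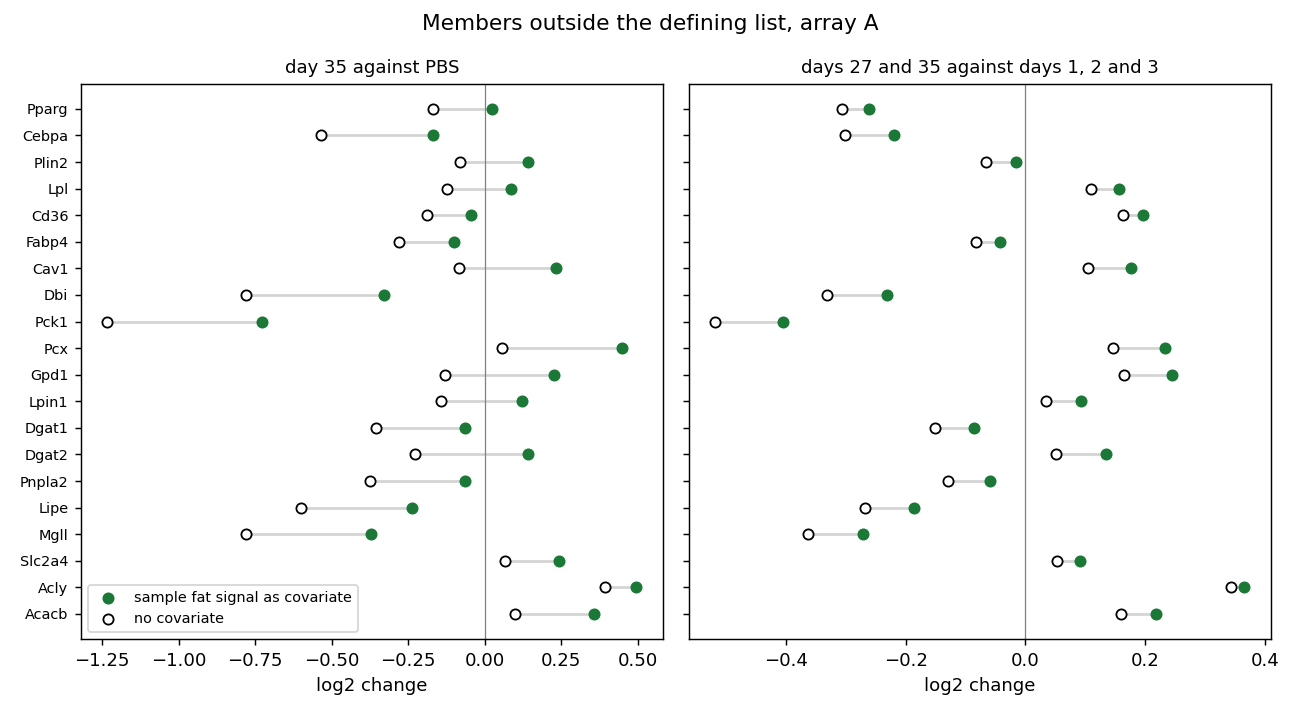
Log2 change of 20 members outside the defining list on array A, without (open) and with (filled) the sample's fat signal as a covariate, for day 35 against PBS and for late against early days. At day 35 most points moved towards or past 0, while Pck1 stayed the lowest, at -0.73.

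Control ratios and markers of other cell types were read in the same samples. The ratio of 3' to 5' signal of the Actb control probe sets on array A was 1.11 to 1.14 at day 35 and 0.98 to 1.04 in PBS samples, and on array B it was 1.19 to 1.23 at day 35 and 1.03 to 1.05 in PBS samples. The groups did not overlap on either array. At day 27 the Actb ratio was 1.06 to 1.12 for array A and 1.13 to 1.19 for array B, also above PBS without overlap. The Pcx ratio on array A was 1.67 to 1.93 at day 35 and 1.41 to 1.54 in PBS samples, without overlap, and on array B 1.35 to 1.51 at day 35 and 1.40 to 1.41 in PBS samples, with overlap. The Gapdh ratio overlapped on array A, at 0.98 to 1.06 at day 35 and 0.99 to 1.01 in PBS samples, and on array B, at 1.01 to 1.13 at day 35 and 1.04 to 1.11 in PBS samples. The part of RNA quality in the result was not tested. For the cell type counts that follow, limma called 4% of all genes lower and 1.26% higher at day 35. Of 13 tested endothelial genes of 14 listed, 2 fell at day 35 and 0 rose. They were Cd300lg (-1.09, SE 0.11, adjusted p = 0.000185, on array B), a marker of capillary endothelium, and Ramp2 (-0.54, SE 0.12, adjusted p = 0.0104, on array A). The control probe sets of Pcx also read lower at day 35 on array B. The summed level of that list on array A ran from 7419 to 8159 at day 35 and from 7906 to 8183 in PBS samples, and 0 of its genes on array A were below the floor. The ranges of the sums overlapped. Of 8 tested genes of fat stroma, 1 rose (Pdgfra, 0.30, SE 0.09, adjusted p = 0.0491) and 0 fell, with sums of 9003 to 9963 at day 35 and 8412 to 9366 in PBS samples. Of 9 tested lymphocyte genes 1 fell (Cd79a, -0.35) and 0 rose, with sums of 16031 to 17436 at day 35 and 17017 to 17449.5 in PBS samples. The sums of both lists overlapped PBS. Of 10 tested macrophage genes 1 fell (Timd4, -0.69, on array B) and 1 rose (Adgre1, 0.53, on array A). The sums on array A were 14947 to 17587 at day 35 and 15575 to 15976 in PBS samples. Of these markers, Cd300lg and Adgre1 were also called at days 3 and 27, and Cd79a and Timd4 at day 27, in the same direction. In the brown fat, mesothelium, pancreas, intestine and muscle lists (5, 3, 4, 4 and 5 genes tested) limma called 0 genes at day 35, with 1, 0, 0, 0 and 2 genes at an unadjusted p under 0.05. Zic1 and Cox7a1 (brown fat), Msln and Wt1 (mesothelium), Cpa1, Cpb1 and Cela2a (pancreas), Cdx1, Cdx2 and Fabp2 (intestine) and Acta1, Myh4 and Tnnt3 (muscle) were below the floor. The part of these cell types in the result was not tested.

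Of 47 further fat cell genes, 41 were tested, and 5 fell at day 35 (4% over all genes) and 0 rose (1.26% over all genes), with a median of -0.09. They included Orm1 (-0.72, SE 0.17, adjusted p = 0.0147), Acvr1c (-0.69, SE 0.12, adjusted p = 0.00326, on array B), Ces1d (-0.62, SE 0.17, adjusted p = 0.0309) and Cdo1 (-0.64, SE 0.19, adjusted p = 0.0472). Acvr1c was dim: its mean over all samples, 146.4 units, lay below the array B filter of 157.9. It was tested only through the samples where it was brighter, and on array A it lay below the floor. Of 21 fatty acid oxidation genes, 18 were tested, and 4 fell (4% over all genes) and 0 rose (1.26%): Etfa (-0.46), Hadh (-0.42), Echs1 (-0.37) and Ech1 (-0.24), with a median of -0.15.

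The first 3 days and day 27 gave no called representative. At day 1, limma called 0 of 28 members, against 0.00807% of all genes, with 3 at an unadjusted p under 0.05 and a median of -0.08. At day 2 it called 0, against 0.0726%, with 1 such member and a median of -0.03. At day 3 it called 0, against 0.299%, with 5 such members and a median of -0.08. In these days most member changes lay below 0 (21, 19 and 19 of 28, against 46.1%, 42.2% and 44.6% of all genes), and none passed the test. At day 27 it called 0, against 1.81%, with 5 such members and a median of 0.05. At day 27 the members with a change below 0 numbered 10 of 28, against 41.5% of all genes. The Dbi probe set 1433991_x_at, not the brightest of its gene, was called at day 27 (-0.75, SE 0.19, adjusted p = 0.0397), a call lost without any 1 PBS replicate or day 27 replicate 3. Acacb (0.43, SE 0.12, adjusted p = 0.0583) and Pcx (0.48, SE 0.16, adjusted p = 0.112) stood above PBS at day 27 without overlap and were not called. Of the 41 other fat cell genes, 2 rose at day 27, Srebf1 (0.45, SE 0.09, adjusted p = 0.00936), which drives fatty acid synthesis, and Gpam (0.44, SE 0.11, adjusted p = 0.0322), which starts glycerolipid synthesis. Over all genes 1.81% were called in either direction at day 27. With array weights 4 members were called higher (Acacb, Acly, Pcx and Thrsp) and 1 lower (Mgll) at day 27, against 7.57% and 5.49% of all genes under the same weights.

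**Figure D4:**
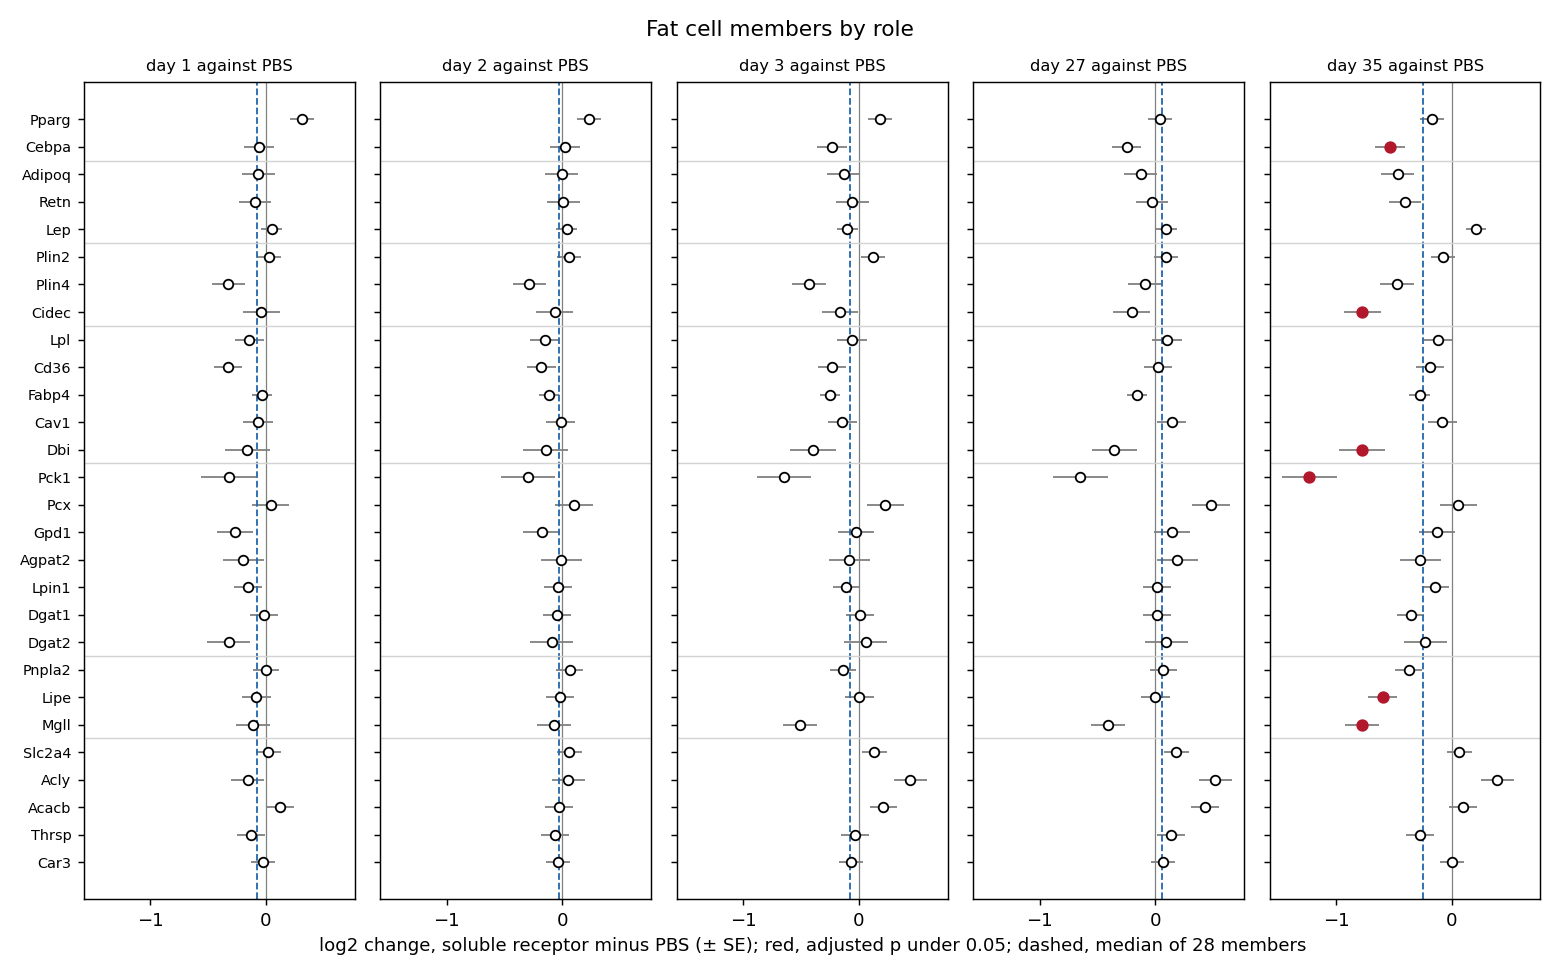
Log2 change of the 28 tested members against PBS at each day, grouped by role, with the SE of the fit; filled red points passed the test and the dashed line is the median. At day 35 the red points are the 6 members called lower, and the dashed line lies at -0.25.

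Days 27 and 35 together were compared with days 1, 2 and 3, as means over the days of each set. Of 28 members 6 fell, against 6.2% of genes called lower, and 1 rose, against 3.09% called higher (8.32% and 1.37% with a common median), with a median of 0.02 against 0.01 over all genes. Pck1 (-0.52, SE 0.15, adjusted p = 0.0268), Cidec (-0.40, SE 0.10, adjusted p = 0.0121) and Pparg (-0.31, SE 0.07, adjusted p = 0.00421) fell. Cebpa (-0.30, SE 0.08, adjusted p = 0.0174), Lipe (-0.27, SE 0.08, adjusted p = 0.03) and Mgll (-0.36, SE 0.09, adjusted p = 0.014) fell as well, and Acly rose (0.34, SE 0.09, adjusted p = 0.0169). On array B, Pck1 fell by 0.63, a call that was lost without day 27 replicate 2 or day 35 replicate 2. The members with a change below 0 numbered 13 of 28, against 45.6% of all genes. Without replicate 2 of day 35 the count was 3 (Cidec and Pparg lower, Acly higher), against 4.99% of all genes lower and 1.38% higher. The Pck1 call on array A was lost in 5 of 15 omissions (day 1 replicates 2 and 3, day 2 replicate 3, day 27 replicate 2 and day 35 replicate 2), and the Lipe call in 6 (day 1 replicates 2 and 3, day 2 replicate 3, day 3 replicate 2, day 27 replicate 3 and day 35 replicate 2). The Pck1 call was also lost with array weights (adjusted p = 0.0648), with the 3 samples of lowest weight left out (0.06) and with no filter (0.0903). The Pck1 call on array B was lost under the last 2 of these. The Cebpa call was lost without day 27 replicate 3 or day 35 replicate 2, that of Acly without day 27 replicate 1, and that of Mgll without day 35 replicate 2. Other probe sets of these genes did not all give the same call. Mgll 1453836_a_at (-0.65, adjusted p = 0.000306) fell and 1450391_a_at did not (0.03, adjusted p = 0.833). The remaining tested Acly probe sets gave 0.19, 0.23 and 0.23, none called. Dbi, not called on its representative (-0.33, adjusted p = 0.0866), was called lower on 1433991_x_at (-0.55) and 1455976_x_at (-0.52). These 2 calls and that of 1453836_a_at held in all 15 omissions. With the fat signal as a covariate 7 of 20 members were called, against 11.8% of 7801 genes of array A. Of the 41 other fat cell genes 2 fell, Cebpd (-0.41) and Cebpb (-0.29), against 6.2% of all genes. Another 2 rose, Gpam (0.26) and Scd1 (0.19), against 3.09%. Since this contrast averages days, it does not show on which day a member moved. At day 3 and day 27 the changes against PBS were -0.65 and -0.65 for Pck1, -0.51 and -0.41 for Mgll and -0.23 and -0.25 for Cebpa. They were -0.16 and -0.21 for Cidec, 0.44 and 0.52 for Acly, 0.18 and 0.04 for Pparg and 0.01 and -0.002 for Lipe. Lipe stood at -0.60 at day 35.

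Day 35 was also compared with day 27. limma called 0 of 28 members and 0 of 12395 genes (0%). At an unadjusted p under 0.05 there were 15 members, a count with no share over all genes to set it against. The median member change was -0.33, against -0.01 over all genes, and 27 of 28 members lay below 0, against 52.6% of all genes. The Lipe change was -0.60 (SE 0.12, adjusted p = 0.186), and its groups did not overlap. The median was -0.19 without replicate 2 of day 35 and -0.47 without replicate 3.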

How the data were processed

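The deposited files hold the authors' linear intensity of each probe set. The software and scaling used to compute them were not given in the sources used here. Medians of single arrays lay between 272.8 and 299.5 (array A) and between 149.8 and 165.2 (array B), and no further scaling was applied. The number of arrays, 3 per group, limits the precision. Members and lists were chosen with earlier results of these data known.

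Each table was floored at its 20th percentile (122.6 for array A, 76.6 for array B) and converted to log2. A probe set was tested where it exceeded the median of its table on at least 3 of 18 arrays, which left 12231 for array A and 12516 for array B. The 64 control probe sets of each array type stayed out. Each table was fitted with limma 3.58.1 in R 4.3.3 (lmFit, eBayes with trend), all 6 groups in 1 fit and no covariate. P-values are two-sided, adjusted by Benjamini-Hochberg within table and contrast, and called at 0.05. The SE is that of the fit.

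A gene was represented by its brightest tested probe set on array A, or on array B where array A had none, and probe sets with several symbols were not used. Every member is accounted for. Values per sample go to members called in any contrast and to Pck1, Adipoq, Retn, Fabp4, Pparg and Cebpa. Of other lists, up to 4 called genes of smallest p are named, and the 8 non-members nearest to the fat signal. The fits were tested on simulated data. Within groups, arrays correlated at r = 0.98 to 1.00 for array A, and 0.96 to 0.99 for array B. One day 1 source label on array B held an unrelated phrase, and that sample was grouped by its title.

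Alternatives changed the scaling, floor, filter, variance model, array weights, probe set and samples, or blocked on the replicate number. Promoters are RefSeq records of GRCm38.p6.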

Additional observations from a re-analysis of the deposited data

Results flagged for a closer look

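A closer look was prompted for 7 members because their log2 intensity differed between late days (27 and 35) and early days (1, 2 and 3) of the soluble receptor in a test of that difference. Each was read from its representative probe set, and other tested probe sets of Mgll and Acly were not all called. The difference is between means over days and does not show on which day a member moved. Against PBS, Pck1 stood at -0.65 at day 3 and at day 27, and Lipe at -0.002 at day 27 and -0.60 at day 35. No PBS group stands beside the late days, so a difference in the receptor's effect and one in day of harvest cannot be told apart. The log2 difference, late minus early, was -0.52 for Pck1 (SE 0.15, adjusted p = 0.0268), -0.40 for Cidec (SE 0.10, adjusted p = 0.0121), -0.31 for Pparg (SE 0.07, adjusted p = 0.00421), -0.30 for Cebpa (SE 0.08, adjusted p = 0.0174), -0.27 for Lipe (SE 0.08, adjusted p = 0.03), -0.36 for Mgll (SE 0.09, adjusted p = 0.014) and 0.34 for Acly (SE 0.09, adjusted p = 0.0169), each from limma with Benjamini-Hochberg adjustment.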

How the results depend on the processing

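The member counts against PBS were 0, 0, 0, 0 and 6 at days 1, 2, 3, 27 and 35, 7 for late against early and 0 for day 35 against day 27. Of 1284 recomputed changes of single probe sets and 142 recomputed medians, 34 and 11 had the other sign than the reported value, and 0 of those 34 were called in either fit (medians have no test). The median changed sign at days 1, 2 and 27 and for late against early. It ran from -0.07 to 0.14 at day 27 and from -0.08 to 0.06 for late against early. Array weights gave 1, 1, 2, 5 and 17 at the 5 days, against 0.815%, 9.79%, 1.82%, 13.1% and 19.1% of all genes. Plin4 was the member called at days 1 and 2, and Plin4 and Pck1 were those called at day 3, all lower. At day 35 these were 16 lower and 1 higher (Lep), against 8.98% and 10.1%. For late against early they gave 12 (6 lower and 6 higher, without Pck1), against 10% and 11.3%, and for day 35 against day 27 20, all lower, against 1.86%, where the median was -0.54. Leaving out day 3 replicate 3, day 27 replicate 2 and day 35 replicate 3, the samples of lowest weight, gave 5 at day 27 (7.08% of all genes), 15 at day 35 (9.37%) and 12 for late against early (15.8%, without Pck1), with a median of -0.46 for day 35 against day 27. A common median gave 10 at day 35 (6.29% of all genes), and quantile normalization 1 at day 27 (2.26%). A fit of only the groups compared gave 1 at day 3 (Plin4, against 0.153% of all genes), and any probe set of a gene 1 at day 27. No filter gave 4 at day 35 (3.05% of all genes) and 2 for late against early (6.72%). The fit with the fat signal as a covariate (an alternative added once the data had been seen) gave 3 at day 27 and 0 at day 35 among 20 members. The shares of all array A genes called there were 2.79% and 0.718%. Omitting single samples gave 0 to 2 at day 27, 3 to 13 at day 35, 3 to 9 for late against early, and a median of -0.47 to -0.19 for day 35 against day 27. The cause was not tested. The replicate number as a block gave 1 at day 27 (2.37% of all genes) and 7 at day 35 (7.81%). With group means removed, samples of the same number in different groups correlated at a mean r of 0.03 on array A (-0.49 to 0.48) and 0.27 on array B (-0.41 to 0.69). Samples of different numbers correlated at a mean of -0.02 on array A and -0.13 on array B. On array B samples of the same number were thus more alike on average, and the main fit has no term for this. The day 35 calls of Pck1 and Car3 on array B held with the replicate number as a block. Members dimmer than the filter have no tested value.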
